A study of Mus musculus with 96 samples.

Results

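Chromatin accessibility was lower in liver macrophage nuclei of fasted than of fed mice at both 16 and 24 h for 1040 of the 30170 peaks in the macrophage table (3.45%). These peaks were selected on measured values. At each time L is log2(mean of the fasted mice + 2) minus log2(mean of the fed mice + 2), and a member has L of -0.5 or lower at 16 h and again at 24 h. Because the rule used the mice at 16 and 24 h, their values are given as a description and carry no test. The mice at 3 and 8 h, and the hepatocyte nuclei of other mice at all 4 times, were not used by the rule and were tested. The macrophage tests took their estimate of spread from all 32 macrophage mice, those at 16 and 24 h included. Members were already lower at 8 h: 298 passed the test there (28.7%, against 4.96% of all peaks) and 0 passed in the opposite direction. At 3 h 8 passed (0.769%, against 0.139%). The difference between the fasting effects at 8 h and 3 h passed for 0 members and 0.0% of all peaks. The number at 8 h was 92 without fasted replicate 3 and 171 after median centring. A fit on the 3 h and 8 h mice alone gave 492 members and 2987 of all peaks lower at 8 h, and 15 and 89 at 3 h. Members lay far from promoters, shared few positions with hepatocyte peaks, and, where they overlapped a promoter, held an interferon response motif in 41.7% of cases, against 7.03% of promoters at any macrophage peak.

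The data are ATAC-seq, in which a transposase cuts open chromatin and the reads over a peak measure how accessible it is. Nuclei were captured on beads from the livers of female INTACT mice, in which the nuclei of 1 cell type carry a tag; the promoter that drives the tag is not given in the sources used here. The labels of the macrophage libraries also carry the letters lys, which they do not spell out. A peak is named by the gene with the nearest start site, and no link between peak and gene is implied. The groups are fasted MAC-INTACT mice (macrophage nuclei) at 3, 8, 16 and 24 h with fed MAC-INTACT mice at the same times, and fasted HEP-INTACT mice (hepatocyte nuclei) at those times with their fed mice. Each of the 16 groups held 4 mice, all groups carry the tag, and no other treatment is given in the labels. Food was withdrawn at ZT12, the start of the active phase of mice, so the times fall at ZT15, ZT20, ZT4 and ZT12.

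Most macrophages of the liver are Kupffer cells, which line the sinusoids, clear particles and iron-laden red cells from the blood and respond to microbial products. Regulatory elements away from promoters carry much of what sets one cell type apart from another, and PU.1 (GAGGAA), AP-1 and C/EBP are among the factors that bind them in macrophages. Interferon-induced genes carry the interferon-stimulated response element (ISRE) in their promoters, which IRF proteins bind.

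Promoter sequences of 7 members are shown, and all but that of Cryba4 hold the ISRE core described below. Each is the stretch of the peak that lies within 250 bases upstream of the RefSeq start site. It is taken from RefSeq promoters on GRCm38.p6 (mm10) and written along the gene's strand. For BC147527 the end of the peak farthest from the start site is thus left out. Capitals mark every match to the ISRE core GAAANNGAA on either strand. BC147527 (chr13:120300142-120300298, plus strand) and Cryba4, a lens crystallin gene (chr5:112252519-112252686, minus strand), are the 2 promoter members among those lowest at 16 and 24 h. Isg15 (chr4:156200819-156200935, minus strand) encodes an interferon-induced ubiquitin-like protein. Oas3 (chr5:120777660-120777797, minus strand) encodes an oligoadenylate synthetase that senses double-stranded RNA. Gbp2 (chr3:142620540-142620662, plus strand) encodes an interferon-induced GTPase. Ifit1bl1 (chr19:34602007-34602207, minus strand) and Slfn5 (chr11:82951955-82952101, plus strand) belong to the interferon-induced IFIT and Schlafen families. All but BC147527, Cryba4 and Oas3 were chosen after their values were seen.
BC147527: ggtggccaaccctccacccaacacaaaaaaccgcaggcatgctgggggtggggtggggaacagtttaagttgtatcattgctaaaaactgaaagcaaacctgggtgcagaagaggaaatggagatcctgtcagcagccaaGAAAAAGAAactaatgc
Cryba4: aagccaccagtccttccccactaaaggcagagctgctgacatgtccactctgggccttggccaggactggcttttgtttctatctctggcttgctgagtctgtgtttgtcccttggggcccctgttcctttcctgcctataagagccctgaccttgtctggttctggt
Isg15: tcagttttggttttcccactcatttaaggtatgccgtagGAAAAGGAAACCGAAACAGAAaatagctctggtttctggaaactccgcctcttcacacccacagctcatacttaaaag
Oas3: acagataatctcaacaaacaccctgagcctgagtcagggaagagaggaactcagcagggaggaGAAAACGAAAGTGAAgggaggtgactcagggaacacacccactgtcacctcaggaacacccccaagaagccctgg
Gbp2: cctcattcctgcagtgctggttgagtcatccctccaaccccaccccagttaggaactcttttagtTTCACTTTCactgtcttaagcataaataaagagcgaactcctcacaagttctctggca
Ifit1bl1: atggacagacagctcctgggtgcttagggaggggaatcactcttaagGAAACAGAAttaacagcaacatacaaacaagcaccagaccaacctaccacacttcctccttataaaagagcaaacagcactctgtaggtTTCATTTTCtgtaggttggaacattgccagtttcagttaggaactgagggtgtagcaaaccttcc
Slfn5: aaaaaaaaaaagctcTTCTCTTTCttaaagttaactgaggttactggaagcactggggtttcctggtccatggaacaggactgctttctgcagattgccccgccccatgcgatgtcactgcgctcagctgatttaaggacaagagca

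A RefSeq promoter window, 250 bases before to 50 after a start site, overlapped a member by at least 100 bp in 48 cases. Klhl13 and Rnase6 each gave a pair of windows at the same peak. The ISRE core was found in 20 of these 48 windows (41.7%), against 640 of the 9103 windows at any macrophage peak (7.03%) and 8.55% of all 32817 windows. Among windows with at most 11 CpG it was found in 20 of 36 at members (55.6%) and in 161 of 1135 at any macrophage peak (14.2%). The 3 matches in the Isg15 sequence overlap one another, and the Cryba4 sequence has 0. Besides 6 of the printed genes, windows with the core were those of Bank1, Bco2, Gbp2b, Gm12250, Gm1966, Gm32679, Ifi205, Ifitm3, Klrk1, Mmp13, Oas1g, Rnase6 and Tlr11, with a pair of windows at Rnase6; these too are named after their values were seen. The PU.1 core GAGGAA was found in 54.2% of member windows and 26.4% of macrophage windows, but in 52.8% and 41.1% where CpG is low. Its last 3 letters can be the first 3 of an ISRE. AP-1 (TGANTCA) was found in 18.8% of member and 3.96% of macrophage windows, and in 22.2% and 9.69% where CpG is low. The SP/KLF core GGGCGG was found in 35.4% and 71.1%, with 35.6% over all windows, and in 16.7% and 29.1% where CpG is low. The E-box CACGTG was found in 4.17% and 11.4%, and in 5.56% and 7.05% where CpG is low. The NF-kB core GGGNNTTTC was in 1 member window (2.08%, against 4.31%) and the glucocorticoid core ACANNNTGT in 3 (6.25%, against 3.31% of macrophage and 6.85% of all windows). Member windows had a median of 5 CpG, against 23 at macrophage peaks and 7 over all windows. All motifs were searched on both strands of the window, so a match can lie outside the peak. A match describes letters, not binding.

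Reads in macrophage peaks numbered from 1729720 (16 h fasted replicate 4) to 4637873 per mouse, and those in hepatocyte peaks from 2458156 to 6098645. All 20 Kupffer cell and macrophage marker genes had peaks in the macrophage table, 117 peaks within 50 kb whose summed level ran from 7259 to 9965 normalized reads over all 32 mice. This sum was 7959 to 9224 in fasted and 8998 to 9881 in fed mice at 8 h. At 16 h it was 7259 to 8662 in fasted and 8655 to 9132 in fed mice. At 24 h it was 8054 to 8643 in fasted and 8018 to 9965 in fed mice, and the groups overlapped at each of these times. Hepatocyte genes had 3 such peaks at 2 of 19 genes, with none at Alb, Apoa1 or Hnf4a. Their sum was 135 to 164 in fasted and 167 to 196 in fed mice at 8 h and 103 to 129 in fasted and 153 to 212 in fed mice at 24 h, and the groups overlapped at neither time. At 3 h it was 137 to 161 in fasted and 146 to 174 in fed mice. At 16 h it was 137 to 181 in fasted and 151 to 187 in fed mice, and the groups overlapped at 3 and 16 h. Sinusoidal endothelial genes had 17 peaks at 8 of 12 genes, with none at Clec4g, Cdh5 or Tek. Their sum was 636 to 716 in fasted and 733 to 854 in fed mice at 8 h and 498 to 717 in fasted and 738 to 784 in fed mice at 16 h, with no overlap at either time. At 24 h it was 666 to 718 in fasted and 700.1 to 877 in fed mice. These 17 peaks include 3 members. The part of other cell types in the results was not tested. In bulk nuclei, fewer nuclei of 1 kind and less signal per nucleus cannot be told apart.

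Averaged over the 1040 members, the mean of log2(normalized reads + 2) lay between 5.23 and 5.36 in the fasted and 5.31 and 5.49 in the fed mice at 3 h. At 8 h it lay between 4.90 and 5.30 in the fasted and 5.49 and 5.65 in the fed mice. The groups overlapped at 3 h through fasted replicate 4 and fed replicate 1, and not at 8 h. At 16 h the range was 4.46 to 4.93 in fasted and 5.46 to 5.65 in fed mice. At 24 h it was 4.75 to 4.85 in fasted and 5.34 to 5.75 in fed mice. The lowest mouse at any time was 16 h fasted replicate 1, and among fed mice at 24 h replicates 1 and 2 lay above 3 and 4. Over all 30170 peaks the mean at 8 h was 6.01 to 6.13 in fasted and 6.15 to 6.22 in fed mice, a far smaller gap. The members took a mean of 1.53%, 1.39%, 1.12% and 1.11% of the reads in peaks of fasted mice at 3, 8, 16 and 24 h, and 1.68%, 1.80%, 1.80% and 1.81% of those of fed mice.

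**Figure D1:**
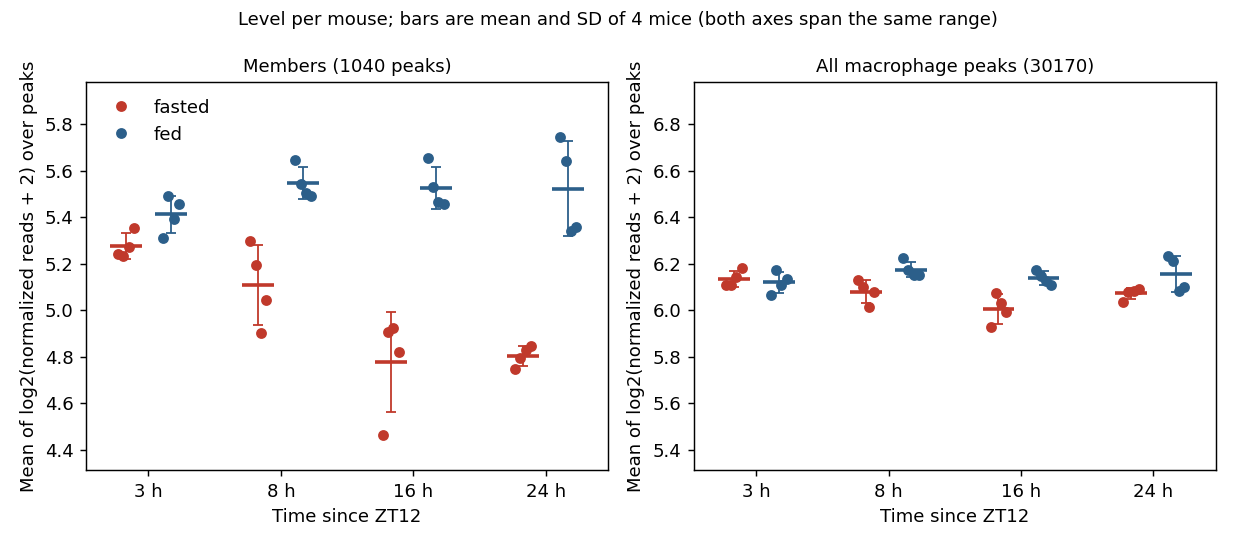
Mean of log2(normalized reads + 2) per mouse (points) over the 1040 members at left and over all 30170 macrophage peaks at right, by time since ZT12, with fasted mice in red and fed mice in blue, and bars for the mean and SD of 4 mice. At 8 h the fasted mice lie between 4.90 and 5.30 and the fed mice between 5.49 and 5.65 over the members, while the fasted mice over all peaks lie between 6.01 and 6.13.

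The median member had a group mean of 35.5 normalized reads in fasted and 38.6 in fed mice at 3 h. At 8 h the medians were 31.2 in fasted and 42.3 in fed mice, at 16 h 24.9 in fasted and 42.4 in fed mice, and at 24 h 24.8 in fasted and 42.4 in fed mice. The fed level of the median member was thus close at 8, 16 and 24 h. Its fasted level was lower at 8 h than at 3 h and lower again at 16 h, and was close at 16 and 24 h. The values at 16 and 24 h are those that chose the members. Libraries at 3 and 8 h and those at 16 and 24 h lie in separate blocks of library numbers. The part of these blocks in the levels was not tested. Median L over members was -0.13 at 3 h, -0.42 at 8 h, -0.67 at 16 h and -0.67 at 24 h, or 1.09, 1.34, 1.60 and 1.59 times lower. Over all peaks the medians were -0.00, -0.07, -0.10 and -0.06, and over the 16032 peaks more than 1 kb from a start site -0.00, -0.18, -0.21 and -0.16. L was under 0 at 3 h for 817 members (78.6%, against 51.5% of all peaks) and at 8 h for 1013 (97.4%, against 65.5%). The middle 90% of members spanned -0.46 to 0.17 at 3 h and -0.81 to -0.08 at 8 h. L differed between 2 sets of library numbers: its median was -0.84 in replicates 1 and 2 and -0.56 in replicates 3 and 4 at 16 h, and -0.89 and -0.48 at 24 h. At 8 h, which the rule did not use, these medians were -0.34 in replicates 1 and 2 and -0.50 in replicates 3 and 4, and 935 members (89.9%) had L under 0 in both sets, against 47.9% of all peaks. At 3 h they were -0.15 and -0.11, and 552 members (53.1%) were under 0 in both sets, against 29.1% of all peaks.

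**Figure D2:**
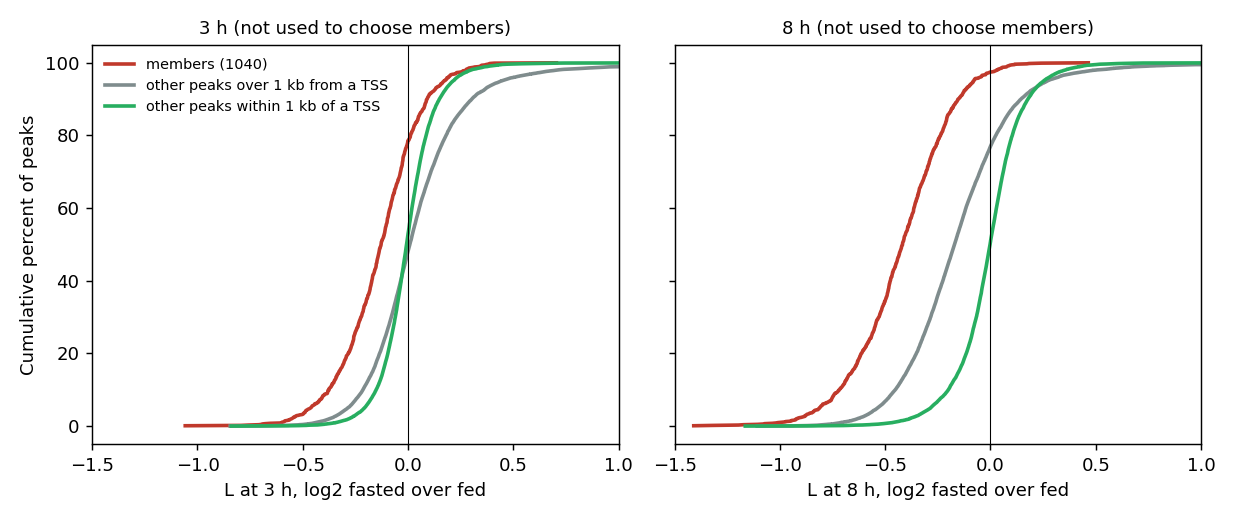
Cumulative percent of peaks by L (log2 of fasted over fed, with an offset of 2) at 3 h at left and 8 h at right, for the 1040 members in red and for the other peaks over 1 kb (grey) and within 1 kb (green) of a start site. The member curve lies to the left of both others, with 78.6% of members under 0 at 3 h and 97.4% at 8 h.

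The first question is whether these peaks had already closed in the first hours of the fast. A peak is called closed when its log2(normalized reads + 2) is lower in fasted than in fed mice at an adjusted p under 0.05 (limma, adjusted over all 30170 peaks), and opened when it is higher. At 3 h 8 members were closed (0.769%), against 0.139% of all peaks and 0.181% of those over 1 kb from a start site, and 0 were opened, against 1.68% of all peaks. At 8 h 298 members were closed (28.7%), against 4.96% of all peaks, and 0 were opened, against 1.63%. Of the 298, 283 lay over 1 kb from a start site, where 8.21% of all peaks were closed. Of the 24 peaks closed at both 3 and 8 h, 6 are members. All fasted mice lay below all fed mice for 90 members at 3 h (8.65% of members, against 2.84% of all peaks) and for 410 at 8 h (39.4%, against 11.0%). All fasted mice lay above all fed mice for 6 members at 3 h (0.577%, against 4.57%) and 1 at 8 h (0.0962%, against 3.47%). As a description, all fasted mice lay below all fed mice for 777 members at 16 h (74.7%, against 13.4% of all peaks) and 751 at 24 h (72.2%, against 9.65%), and 9.92% and 6.91% of all peaks met the rule at 16 h and at 24 h taken alone. Members are 34.7% of the peaks that met it at 16 h and 49.9% of those that met it at 24 h. In the authors' deposited table, 268 members (25.8%) were lower at 8 h at an adjusted p under 0.05, against 4.12% of all peaks, and 0 were higher, against 1.49%. At 3 h the authors' deposited table had 5 members lower (0.481%, against 0.119%) and 1 higher (0.0962%, against 1.53%).

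The number called rests on single mice. At 3 h it was 5 without fasted replicate 1, 3 without fasted replicate 3, 4 without fed replicate 1, 2 without fed replicate 2, 5 without fed replicate 3 and 4 without fed replicate 4. At 8 h it was 92 without fasted replicate 3, 131 without fasted replicate 4, 127 without fed replicate 1 and 177 without fed replicate 2. Over all peaks, 1497 were closed and 493 opened at 8 h, while median centring gave 583 closed and 1155 opened, and edgeR gave 1216 closed and 1290 opened. With centring 171 of the members were closed at 8 h, and with edgeR 287. The fasting effect at 8 h minus that at 3 h had a median of -0.30 log2 units over members and -0.08 over all peaks. It passed for 0 members in limma (0.0% of all peaks), edgeR and DESeq2. At an unadjusted p under 0.05 it was lower for 169 members (16.2%, against 7.52% of all peaks) and higher for 0 (against 1.14%). Between the 8 h and 3 h fed mice, 0 members passed in limma (0.0431% of all peaks), 1 in edgeR and 0 in DESeq2. The median difference between these fed groups was 0.14 over members and 0.04 over all peaks, with 85 members higher (8.17%, against 6.19% of all peaks) and 6 lower (0.577%, against 1.88%) at an unadjusted p under 0.05.

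The 8 members closed at 3 h lay near Igf1, Gbp11, Morn1, Mid1ip1, Fam92a, Atp6v1b2, Erich5 and Clta. An intergenic peak 139480 bp upstream of Igf1 (chr10:87718685-87718885), the gene of the growth factor that the liver releases under growth hormone, had 45.7, 49.8, 39.6 and 48.2 normalized reads in the fasted mice, against 73.1, 75.3, 84.02 and 83.2 in the fed mice. The groups did not overlap, and the log2 fold change was -0.76 ± 0.14 (adjusted p = 0.00019). At 8 h the change was -0.47 ± 0.14 (adjusted p = 0.0308), and at 24 h the levels were 28.4, 35.04, 34.1 and 31.1 normalized reads in the fasted mice, against 81.4, 102, 67.6 and 54.7 in the fed mice. A peak 7762 bp upstream of Gbp11 (chr5:105354138-105354338), of the interferon-induced GTPase family, had 14.9, 11.4, 18.1 and 16.8 normalized reads in the fasted mice, against 40.5, 34.7, 25.8 and 35.1 in the fed mice, the largest fall of any member at 3 h. All fasted mice lay below all fed mice, at -1.06 ± 0.24 (adjusted p = 0.00466). At 8 h its groups were again apart, with 14.05, 16.9, 10.5 and 14.5 normalized reads in the fasted mice, against 26.2, 32.5, 20.8 and 25.2 in the fed mice, and the change was -0.82 ± 0.24 (adjusted p = 0.028). An intronic peak near Morn1 (chr4:155121296-155121496) changed by -0.78 ± 0.20 (adjusted p = 0.0197) at 3 h and by -0.76 ± 0.20 (adjusted p = 0.0155) at 8 h. A peak 82679 bp upstream of Atp6v1b2 (chr8:69005957-69006157), which encodes a subunit of the proton pump that acidifies lysosomes, changed by -0.66 ± 0.18 (adjusted p = 0.0348) at 3 h. An intronic peak of Erich5 changed by -0.60 ± 0.17 (adjusted p = 0.0479) and one 361088 bp upstream of Fam92a by -0.69 ± 0.18 (adjusted p = 0.0188). A peak near Mid1ip1, whose product stimulates fatty acid synthesis, changed by -0.73 ± 0.20 (adjusted p = 0.0303) at 3 h and by -0.56 ± 0.20 (adjusted p = 0.0668) at 8 h, where it did not pass. The remaining one lies 2316 bp from the start site of Clta, a clathrin light chain gene, and is named after its values were seen. Of these calls at 3 h, those of Igf1 and Gbp11 held under all alternatives run. That of Fam92a was lost with no variance trend and without fasted replicate 3 or 4 or fed replicate 2. That of Morn1 was lost without fasted replicate 1, 2 or 3 or fed replicate 2 or 3, that of Mid1ip1 without any mouse but fasted replicate 2 or fed replicate 3, and that of Atp6v1b2 without any but fasted replicate 3. Those of Erich5 and Clta were lost without any 1 of the 8 mice, and that of Erich5 also with an offset of 1 or at a mean of at least 30. The Igf1 call at 8 h was lost after median centring, after quantile normalization, in edgeR, in DESeq2 and without any mouse but fasted replicate 1 or 2. That of Gbp11 was lost after both scalings and without fasted replicate 3 or 4 or fed replicate 1 or 2, and that of Morn1 without fasted replicate 3 or 4 or fed replicate 2.

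The largest fall of a member at 8 h was at an intergenic peak 145400 bp upstream of Gm20740, a predicted gene (chr15:63624908-63625108). It had 18.96, 9.84, 9.78 and 12.8 normalized reads in the fasted mice, against 32.5, 44.5, 34.99 and 37.8 in the fed mice, with a log2 fold change of -1.44 ± 0.21 (adjusted p = 9.37e-06). At 3 h it had 22.3, 22.1, 17.4 and 19.1 normalized reads in the fasted mice, against 29.9, 29.9, 31.6 and 25.3 in the fed mice, which did not overlap either but did not pass, at -0.49 ± 0.21 (adjusted p = 0.391). A peak 5335 bp upstream of Tyk2 (chr9:21136510-21136710), the gene of a Janus kinase of the type I interferon receptor, had 16.9, 12.6, 17.5 and 11.1 normalized reads in the fasted mice, against 32.5, 35.5, 34.2 and 41.4 in the fed mice at 8 h. The groups were far apart, and the change was -1.21 ± 0.19 (adjusted p = 2.83e-05). At 24 h the fasted mice were again the lower ones, with 15.6, 14.8, 15.4 and 12.97 normalized reads in the fasted mice, against 34.9, 40.5, 28.5 and 18.2 in the fed mice; fed replicate 4 lay closest to them. A peak 1044 bp upstream of Gna15 (chr10:81525169-81525369), the gene of a G protein alpha subunit of blood cells, fell by 1.18 ± 0.20 log2 units (adjusted p = 0.000118). It had 14.8, 18.3, 13.97 and 11.1 normalized reads in the fasted mice, against 27.5, 38.5, 39.99 and 35.1 in the fed mice, and the groups did not overlap. A peak 36647 bp upstream of Cbr4 (chr8:61450987-61451187), the gene of a mitochondrial carbonyl reductase, had 14.05, 15.5, 14.7 and 8.56 normalized reads in the fasted mice, against 26.9, 35.5, 32.5 and 27.9 in the fed mice at 8 h, with a change of -1.12 ± 0.21 (adjusted p = 0.000421). Peaks near 9430018G01Rik and Mir5127 complete the 6 members of largest fall when 1 peak is taken per gene.

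**Figure D3:**
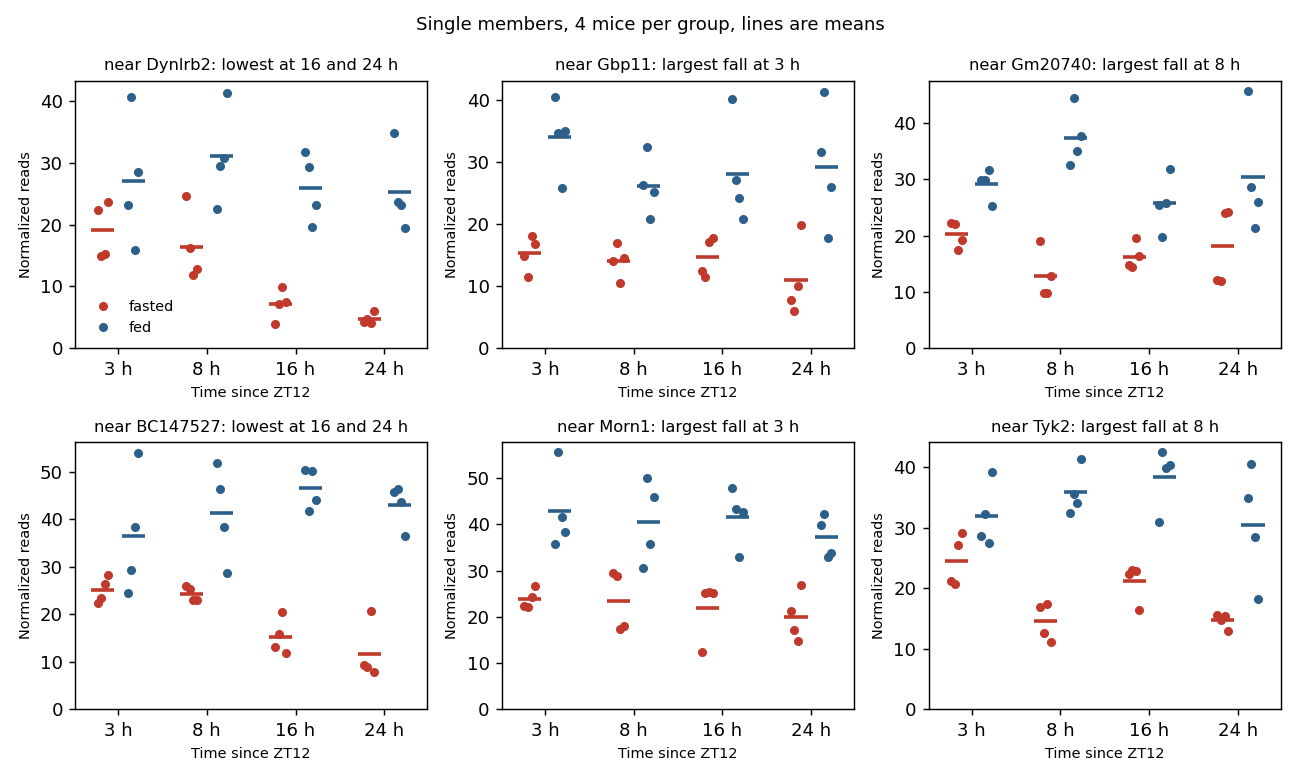
Normalized reads per mouse (points, 4 per group) with group means (lines) at 6 members by time since ZT12, fasted mice in red left of fed mice in blue. The groups are apart at 3 h for the peaks near Gbp11, Morn1 and Gm20740, and at 8 h for these and Tyk2, and those near Dynlrb2 and BC147527 have their lowest fasted means, 4.77 and 11.7, at 24 h.

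At 16 and 24 h, where the values are those that chose the members, the lowest was an intergenic peak 241585 bp upstream of Dynlrb2 (chr8:116263330-116263530), the gene of a dynein light chain. At 16 h it had 3.87, 7.17, 9.81 and 7.43 normalized reads in the fasted mice, against 31.7, 29.3, 19.6 and 23.2 in the fed mice. At 24 h it had 4.27, 4.75, 4.02 and 6.05 normalized reads in the fasted mice, against 34.9, 23.6, 23.1 and 19.5 in the fed mice, where L was -2.01. The groups did not overlap at either time, and at 8 h, which was not used, the change was -0.87 ± 0.24 (adjusted p = 0.0221) with fasted replicate 1 among the fed mice. The promoter peak of BC147527 had 9.24, 8.91, 20.8 and 7.78 normalized reads in the fasted mice, against 45.7, 46.4, 43.6 and 36.4 in the fed mice at 24 h; fasted replicate 3 stood above the other 3 fasted mice and below all fed mice. At 8 h it had 25.99, 25.3, 23.1 and 23.1 normalized reads in the fasted mice, against 51.9, 46.3, 38.3 and 28.8 in the fed mice, with a change of -0.69 ± 0.21 (adjusted p = 0.0349). A peak inside the Erich5 gene (chr15:34456309-34456509) had 33.7, 30.2, 20.96 and 24.8 normalized reads in the fasted mice, against 58.1, 56.6, 52.5 and 40.5 in the fed mice at 8 h, without overlap, and was closed there under all alternatives run. An intronic peak whose nearest start site is that of Thsd4, a matrix protein gene (chr9:60187036-60187236), had 10.1, 7.17, 14.7 and 14.9 normalized reads in the fasted mice, against 40.2, 39.6, 41.5 and 51.3 in the fed mice at 16 h and changed by -0.81 ± 0.21 (adjusted p = 0.0141) at 8 h. Peaks near Creb1, the gene of the cAMP response factor, and Ect2, a regulator of cell division, had changes of -0.85 ± 0.21 (adjusted p = 0.0105) and -0.65 ± 0.19 (adjusted p = 0.0321) at 8 h. The Cryba4 promoter had 17.8, 14.3, 6.02 and 18.2 normalized reads in the fasted mice, against 38.2, 43.8, 32.9 and 35.1 in the fed mice at 24 h and did not pass at 8 h, at -0.57 ± 0.23 (adjusted p = 0.118). Of the 12 lowest members, those near Gm8633 and Kctd3 did not pass at 8 h either, while peaks near the zinc finger gene Zfp608 and near 4930486F22Rik passed, at -0.81 ± 0.17 (adjusted p = 0.00201) and -0.77 ± 0.20 (adjusted p = 0.0151). The 8 h call of Zfp608 held under all alternatives run. Leaving out fasted replicate 3 ended the calls of Dynlrb2, BC147527, Thsd4, Creb1 and Ect2. Leaving out fasted replicate 4 ended those of Dynlrb2, BC147527, Ect2 and 4930486F22Rik, and leaving out fed replicate 1 those of BC147527, Ect2 and 4930486F22Rik. Fed replicate 4 decided that of Dynlrb2 too, fed replicate 2 those of BC147527 and Ect2, and fasted replicate 2 and fed replicate 3 that of BC147527. Median centring ended the calls of BC147527 and Ect2, quantile normalization those and Thsd4, and no variance trend that of Ect2.

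Near the threshold the choice turned on thousandths of a log2 unit. Just inside it were peaks near Gm30173 (L of -0.501 at 16 h and -0.665 at 24 h), Slc6a6 (-0.501 at 16 h and -0.611 at 24 h) and Sept8 (-0.589 at 16 h and -0.501 at 24 h). Just outside it were peaks near March5 (-0.499 at 16 h and -0.562 at 24 h), Pcolce2 (-0.499 at 16 h and -0.561 at 24 h) and Zeb2 (-0.523 at 16 h and -0.499 at 24 h). The Slc6a6 promoter peak, of the taurine transporter gene, had 53.8 ± 6.20 normalized reads in fasted and 52.6 ± 2.12 in fed mice at 8 h (SD, n = 4 each), and the change there was 0.03 ± 0.14 (adjusted p = 0.939).

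Members were mostly weak peaks away from genes' starts. Their mean level over the 32 mice was 18.1 to 178 normalized reads with a median of 35.1, against 58.7 over all peaks, and all 1040 passed the filter on low values. When all peaks were split by level into 5 bins of 6034, 8.14% of the lowest bin were members, and going up 5.32%, 3.00%, 0.746% and 0.0331%. By the authors' annotation 469 members (45.1%) were intergenic, 447 (43.0%) intronic and 71 (6.83%) at promoters, against 24.9%, 29.7% and 39.7% of all peaks. Another 21 lay at transcription ends, 16 in 3′ UTRs and 15 in exons, while 0 of the 467 peaks in 5′ UTRs was a member. A distance over 1 kb from the nearest start site held for 962 members (92.5%), against 53.1% of all peaks. Of peaks that far away 6.0% were members, and of nearer ones 0.552%. The median distance was 26798 bp for members, 1708 bp for all peaks and 17025 bp for all peaks over 1 kb away. Over 50 kb lay 325 members (31.2%), against 10.8% of all peaks.

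Some members lie in old transposable elements. Of 781 peaks annotated to ERVL-MaLR elements, old LTR retrotransposons, 69 were members (8.83%), and within that family 23 of 150 MTD copies (15.3%) and 11 of 69 MTC copies (15.9%). The share varied among other LTR copies. It was as high for MTE2a, 5 of 32 copies (15.6%), and was 3 of 24 for MTE2b (12.5%). It was lower for ORR1F, 4 of 56 (7.14%), ORR1D2, 2 of 50 (4.0%), and ORR1E, 1 of 77 (1.30%). L1 elements held 36 members of 427 peaks (8.43%). Shares as high or higher were found in MIR elements, 15 of 164 peaks (9.15%), and hAT-Charlie elements, 7 of 58 (12.1%). The share over all peaks more than 1 kb from a start site was 6.0%. ERVL-MaLR peaks as a whole had a median L of -0.26 at 8 h, against -0.18 over all such distant peaks. By chromosome the share of peaks that were members ran highest on chromosome 16 (6.15%) and chromosome 1 (5.01%), and was 2.17% on chromosome 11.

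The 1040 members form 1031 separate regions, since 18 overlap another member and share its reads. Their nearest start sites belong to 870 genes, of which 744 had 1 member, 14 had 3 and 12 had 4 or more. Gm20740, Chd9 and Fam92a had 6 each. Where members near 1 gene overlap, they share reads, and their calls are not separate results. All 6 Gm20740 members were closed at 8 h, and a peak 137075 bp upstream (chr15:63616583-63616783) had 18.96, 23.9, 9.08 and 15.4 normalized reads in the fasted mice, against 41.9, 45.1, 43.3 and 49.5 in the fed mice, with a change of -1.38 ± 0.22 (adjusted p = 3.33e-05). None of the 6 members near Chd9, a chromatin remodeller gene, was closed at 8 h, where L was -0.39 to -0.08, yet L was -1.06 to -0.65 at 16 h. Of the 6 near Fam92a 3 were closed at 8 h and 1 of them also at 3 h. At 8 h a single Fam92a call, 327674 bp away, was lost in 14 of 19 alternatives, edgeR, DESeq2 and both scalings among them, and the other two without fasted replicate 3. Dab2ip, a Ras GTPase-activating protein gene, had 4 members between 21486 and 33133 bp from its start, 3 of which were closed at 8 h with L of -0.84 each. Without fasted replicate 3 a single call each was lost at Gm20740 and Dab2ip. Gm45915, Marcks, Prr5l, Ly6e, Tusc1, Thrb, E330011O21Rik and Rgl1 also had 4 members each. Ly6e is an interferon-induced membrane protein gene, Thrb encodes thyroid hormone receptor beta, and Prr5l binds the mTOR kinase complex.

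Gene lists took peaks whose nearest start site, within 50 kb, is that of a listed gene. Of 91 peaks near interferon response genes 11 were members (12.1%), against 3.45% of all peaks, and 4 of the 11 lay within 1 kb of a start site. Among them were peaks near Gbp2, Gbp3, Ifnar2, Isg15, Mx1, Oas3, Oasl1 and Usp18, with a pair each at Gbp3 and Mx1; all but those of Oas3 and Gbp3 are named after their values were seen. At 8 h 10 of the 11 had L under 0, with a median of -0.36, and 1 was closed (background 4.96%). Over all members 97.4% had L under 0 at 8 h, with a median of -0.42 and 28.7% closed. Over the 91 peaks the median was -0.24 with 7 closed and 1 opened. At 3 h 0 of the 91 was called. The one closed at 8 h is an intronic peak 15906 bp from the start of Mx1 (chr16:97478712-97478912), an antiviral GTPase gene, with 42.1, 31.6, 15.4 and 27.4 normalized reads in the fasted mice, against 41.2, 44.5, 41.7 and 50.4 in the fed mice. Fasted replicate 1 overlapped the fed mice, and the change was -0.65 ± 0.18 (adjusted p = 0.0251). This call was lost after median centring, after quantile normalization, in DESeq2 and without fasted replicate 3 or 4 or fed replicate 2 or 4. The Mx1 promoter peak (chr16:97462866-97463066) had 73.05, 77.3, 60.1 and 67.6 normalized reads in the fasted mice, against 94.98, 84.2, 90.8 and 80.1 in the fed mice at 8 h, with no overlap, and did not pass, at -0.33 ± 0.13 (adjusted p = 0.119). At 24 h it had 51.2, 52.3, 56.2 and 56.2 normalized reads in the fasted mice, against 139.6, 106, 83.6 and 84.6 in the fed mice, with all fasted mice lower.

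The Oas3 promoter peak, whose sequence holds 2 ISRE matches, had 41.4, 27.8, 47.3 and 45.2 normalized reads in the fasted mice, against 40.5, 46.6, 49.9 and 55.5 in the fed mice at 3 h. At 8 h it had 44.95, 54.1, 28.6 and 43.6 normalized reads in the fasted mice, against 69.4, 48.1, 64.98 and 39.6 in the fed mice. The groups overlapped at both times, and the changes did not pass, at -0.26 ± 0.20 (adjusted p = 0.777) and -0.36 ± 0.20 (adjusted p = 0.282). At 24 h it had 17.8, 24.3, 18.7 and 19.9 normalized reads in the fasted mice, against 62.3, 48.9, 44.5 and 35.1 in the fed mice, which did not overlap. The Isg15 promoter peak, with 3 matches, had 43.5, 30.9, 21.7 and 28.2 normalized reads in the fasted mice, against 31.9, 43.3, 39.99 and 37.8 in the fed mice at 8 h, where fasted replicate 1 was the highest of the 8 mice, and 28.6, 27.3, 28.6 and 19.3 normalized reads in the fasted mice, against 44.8, 41.8, 44.6 and 36.7 in the fed mice at 16 h, where the groups were apart. At 24 h its fasted replicate 3 lay above fed replicate 3. The Gbp2 promoter averaged 37.6 ± 7.65 normalized reads in fasted and 51.2 ± 3.58 in fed mice at 8 h (SD, n = 4 each), at -0.45 ± 0.17 (adjusted p = 0.0862). A peak inside Oasl1, an oligoadenylate synthetase-like gene, had 13.8, 26.3, 26.4 and 32.9 normalized reads in the fasted mice, against 35.2, 39.4, 33.3 and 45.7 in the fed mice at 3 h, without overlap, and did not pass, at -0.64 ± 0.20 (adjusted p = 0.0993). An intronic peak of Gbp3 averaged 26.7 ± 5.24 normalized reads in fasted and 26.3 ± 5.13 in fed mice at 8 h and 14.6 ± 3.86 normalized reads in fasted and 33.8 ± 4.12 in fed mice at 16 h, and did not pass at 8 h, at 0.02 ± 0.19 (adjusted p = 0.975). A peak near Usp18, which removes ISG15 from proteins, did not pass at 8 h, at -0.45 ± 0.23 (adjusted p = 0.238).

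**Figure D4:**
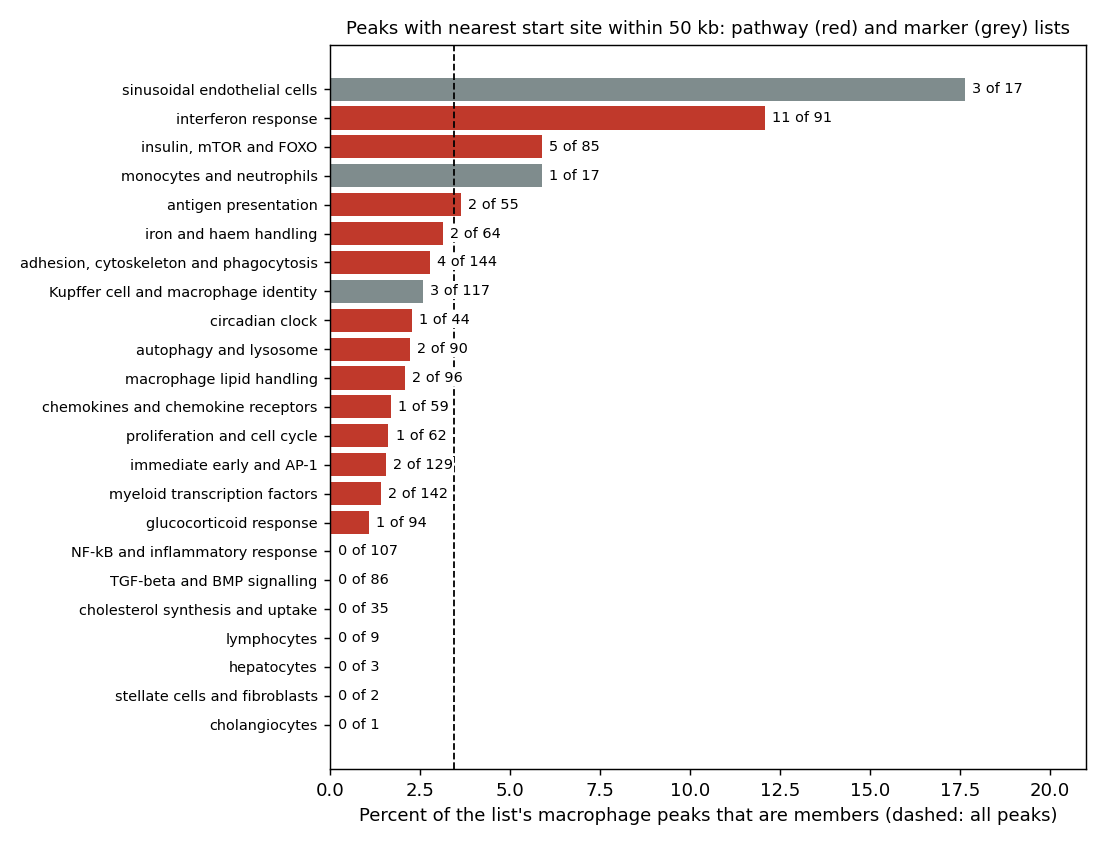
Percent of the macrophage peaks near each list's genes that are members, with pathway lists in red, cell type marker lists in grey, the counts beside the bars and the share over all peaks as the dashed line. Interferon response (11 of 91) and sinusoidal endothelial genes (3 of 17) lie farthest above 3.45%, and NF-kB and inflammatory response genes have 0 of 107.

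The other pathway lists had 0 to 5 members each. Insulin, mTOR and FOXO genes had 5 of 85 peaks (5.88%, against 3.45% of all peaks), among them peaks at Akt2, Igf1 and Slc2a1, and 0 of the 5 was closed at 8 h; the Akt2 promoter, of an insulin-activated kinase, averaged 55.8 ± 2.73 normalized reads in fasted and 67.3 ± 12.5 in fed mice at 8 h and 41.8 ± 8.54 normalized reads in fasted and 75.9 ± 9.53 in fed mice at 16 h (SD, n = 4 each). Iron and haem genes had 2 of 64 (3.13%), and both were closed at 8 h. These lie near Tfrc, the transferrin receptor gene, which changed by -0.76 ± 0.23 (adjusted p = 0.0348), and Steap3, a ferrireductase gene, by -0.63 ± 0.16 (adjusted p = 0.0121). A peak 14269 bp upstream of Arntl, which encodes the clock factor BMAL1, was the 1 member of 44 clock peaks (2.27%) and averaged 36.6 ± 10.5 normalized reads in fasted and 60.3 ± 5.06 in fed mice at 8 h, at -0.73 ± 0.17 (adjusted p = 0.00536). Of 142 peaks near myeloid transcription factor genes 2 were members (1.41%); that 4421 bp upstream of Maf averaged 28.7 ± 5.25 normalized reads in fasted and 52.6 ± 8.73 in fed mice at 8 h, at -0.83 ± 0.17 (adjusted p = 0.00205). Antigen presentation genes had 2 members of 55 peaks (3.64%), both near the costimulatory gene Cd86, 1 of which changed by -0.56 ± 0.14 (adjusted p = 0.00821) at 8 h, where 11 of the 55 peaks were closed. The promoter of the scavenger receptor gene Msr1 changed by -0.50 ± 0.16 (adjusted p = 0.0476) and a peak at the end of the cyclin gene Ccnd3 by -0.71 ± 0.18 (adjusted p = 0.0126) at 8 h. The Msr1 call was lost at a mean of at least 30, after median centring, after quantile normalization, in edgeR, in DESeq2 and without any mouse but fasted replicate 2 or fed replicate 3. The Tfrc call was lost after centring, with no variance trend and without any mouse but fasted replicate 1 or fed replicate 3. Those of Steap3 and Ccnd3 were lost without fasted replicate 3, Steap3 also after quantile normalization and Ccnd3 also without fed replicate 1, and those of Arntl and Cd86 without fasted replicate 4.

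Glucocorticoid response genes, of whose 94 peaks 31 opened at 3 h and 28 at 8 h with 0 closed at either, had 1 member (1.06%), 27172 bp from the start of Cebpd, at -0.46 ± 0.16 (adjusted p = 0.0699) at 8 h. Immediate early and AP-1 genes had 2 of 129, lipid handling 2 of 96, autophagy and lysosome 2 of 90, adhesion, cytoskeleton and phagocytosis 4 of 144, chemokines 1 of 59 and proliferation 1 of 62, or 1.55% to 2.78% each. NF-kB and inflammatory response (107 peaks), TGF-beta and BMP signalling (86) and cholesterol synthesis and uptake (35) had 0. The Nr4a1 member, near an immediate early nuclear receptor gene, averaged 30.02 ± 6.61 normalized reads in fasted and 34.6 ± 7.09 in fed mice at 8 h and 19.2 ± 6.47 normalized reads in fasted and 39.6 ± 8.93 in fed mice at 16 h (SD, n = 4 each), and the 8 h change was -0.20 ± 0.20 (adjusted p = 0.605).

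Of the 117 Kupffer cell and macrophage peaks 3 were members, a pair at Clec4f, a lectin gene that marks Kupffer cells, and 1 at Timd4, a receptor for dying cells. None was closed at 8 h, and the median L of the 3 was 0.17 there, against -0.12 over the 117. The peak 3407 bp upstream of Clec4f averaged 46.3 ± 9.67 normalized reads in fasted and 46.1 ± 7.87 in fed mice at 8 h and 22.1 ± 3.47 normalized reads in fasted and 43.9 ± 7.68 in fed mice at 16 h (SD, n = 4 each). Sinusoidal endothelial genes had 3 of 17, near the VEGF receptor genes Flt1 and Kdr and the adhesion gene Pecam1, which blood cells also express; the Kdr peak is named after its values were seen. At 8 h the Flt1 peak changed by -0.88 ± 0.17 (adjusted p = 0.000814) and the Kdr peak by -0.65 ± 0.17 (adjusted p = 0.0163), while the Pecam1 peak did not pass, at 0.08 ± 0.20 (adjusted p = 0.859). The Kdr call was lost without fasted replicate 2, 3 or 4 or fed replicate 1. Monocyte and neutrophil genes had 1 of 17 (5.88%), near Retnlg, and lymphocyte (9 peaks), hepatocyte (3), stellate cell and fibroblast (2) and cholangiocyte genes (1) had 0.

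Few members coincided with a listed hepatocyte peak. Of the 1040, 30 overlapped a peak of the hepatocyte table (2.88%), against 14136 of all macrophage peaks (46.9%). Among peaks over 1 kb from a start site the shares were 2.29% of members and 17% of all, and within 1 kb they were 8 of 78 members (10.3%) and 80.7% of all. The 30 members met 31 hepatocyte peaks, whose median level was 33.7 normalized reads, against 79.4 for hepatocyte peaks at any macrophage peak and 52.7 for all hepatocyte peaks. With hepatocyte peaks of a mean of at least 30 alone the overlap was 17.

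The hepatocyte libraries come from other mice, so the same positions could be tested there at all 4 times. Of the 31 hepatocyte peaks 11 were closed and 2 opened at 3 h (35.5% closed, against a background of 10.3% closed and 11.3% opened). At 8 h 15 were closed (48.4%) and 0 opened, against 13.7% and 20.3% of all hepatocyte peaks. At 16 h 16 were closed (51.6%) and 0 opened, against 12.8% and 19.0%. At 24 h 19 were closed (61.3%) and 0 opened, against 11.4% and 25.3%. Among the 2737 hepatocyte peaks at macrophage peaks over 1 kb from a start site, 9.46%, 7.05%, 6.07% and 6.28% were closed at 3, 8, 16 and 24 h. Over the 31 peaks 23 were closed at 1 or more times, 6 at all 4 times, and 8 were called at no time. Without fed replicate 1 or without fed replicate 3 the number closed at 3 h was 7. Among hepatocyte peaks 6 of 20 Kupffer cell and macrophage genes had peaks, 31 in number, and none of their group sums was lower in fasted mice without overlap: the sum was 2682 to 2956 in fasted and 2342 to 2607 in fed mice at 8 h and 2715 to 3113 in fasted and 2275 to 2580 in fed mice at 24 h. Cholangiocyte genes had 3 peaks at 2 of 6 genes, with a sum of 74.1 to 85.4 in fasted and 124 to 133 in fed mice at 8 h, which did not overlap, and their part in the calls was not tested. Hepatocyte genes had 191 peaks at 19 of 19 genes, with sums of 11218 to 16881 over all mice.

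**Figure D5:**
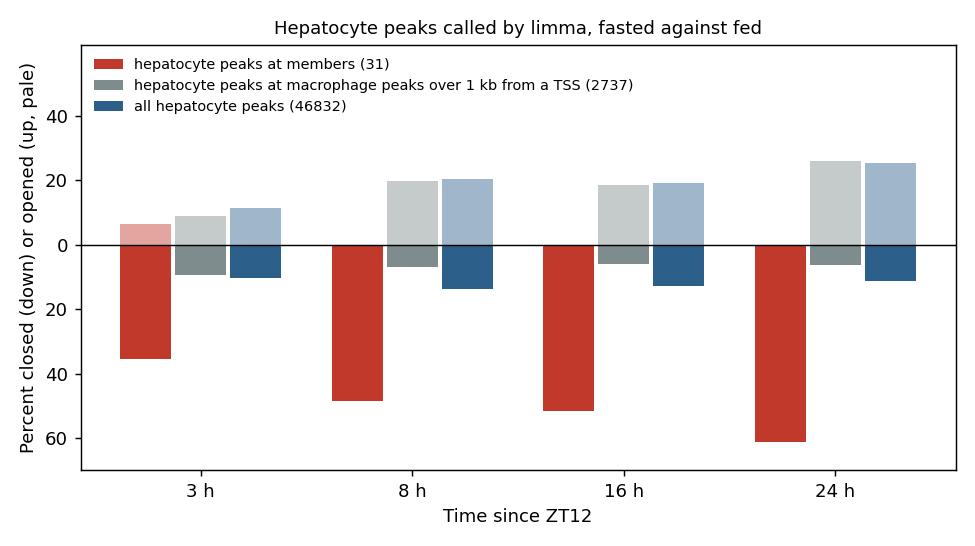
Percent of hepatocyte peaks closed (downward, solid) or opened (upward, pale) in fasted against fed mice by limma at each time, for the 31 hepatocyte peaks at members in red, the 2737 at macrophage peaks over 1 kb from a start site in grey and all 46832 in blue. The red bars reach 35.5%, 48.4%, 51.6% and 61.3% closed at 3, 8, 16 and 24 h.

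In hepatocyte nuclei the peak 139480 bp upstream of Igf1 had 21.2, 34.00, 15.3 and 17.4 normalized reads in the fasted mice, against 67.4, 30.98, 45.2 and 73.3 in the fed mice at 3 h. Fasted replicate 2 overlapped the fed mice, and the change was -1.22 ± 0.29 (adjusted p = 0.00204). At 8 h it had 31.3, 22.6, 20.1 and 18.6 normalized reads in the fasted mice, against 112, 52.00, 108 and 122 in the fed mice, with no overlap, at -1.95 ± 0.29 (adjusted p = 1.97e-06). At a promoter near the predicted gene Gm5464 the hepatocyte peak had 36.7, 35.00, 29.5 and 32.4 normalized reads in the fasted mice, against 93.05, 78.9, 87.1 and 107 in the fed mice at 3 h. By 16 h it had 17.3, 9.35, 8.82 and 15.7 normalized reads in the fasted mice, against 69.2, 90.6, 75.7 and 79.7 in the fed mice, the largest change among the 31, at -2.49 ± 0.21 (adjusted p = 4.93e-11). A peak in an intron near Smad1, the gene of a BMP signal transducer, changed by -1.23 ± 0.28 (adjusted p = 0.00164) at 3 h and -1.97 ± 0.28 (adjusted p = 1.4e-06) at 8 h. It had 6.88, 8.53, 11.03 and 10.6 normalized reads in the fasted mice, against 33.6, 31.8, 33.3 and 29.7 in the fed mice at 24 h, again apart. The promoter of Ifitm3, which encodes an antiviral membrane protein and holds the ISRE core, is named after its values were seen; it had 17.1, 14.1, 14.9 and 11.04 normalized reads in the fasted mice, against 36.7, 41.8, 35.5 and 44.05 in the fed mice at 8 h. The groups did not overlap, and the changes at 3, 8, 16 and 24 h were -0.76, -1.36, -0.75 and -0.68, each past the threshold.

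A pair of hepatocyte peaks first rose and later fell. An intronic peak of Cmah, which encodes an enzyme that modifies sialic acid, changed by 1.11 ± 0.31 (adjusted p = 0.00944) at 3 h and -1.21 ± 0.31 (adjusted p = 0.00334) at 16 h. At 3 h it had 52.2, 62.5, 73.1 and 37.1 normalized reads in the fasted mice, against 24.4, 17.7, 20.6 and 38.4 in the fed mice, where fasted replicate 4 overlapped the fed mice. An intronic peak of Opa1, of a mitochondrial fusion protein, had 72.5, 63.5, 94.9 and 86.1 normalized reads in the fasted mice, against 46.8, 40.6, 50.7 and 52.2 in the fed mice at 3 h and 31.1, 36.4, 35.3 and 40.2 normalized reads in the fasted mice, against 53.8, 62.7, 69.8 and 71.2 in the fed mice at 16 h. Its groups did not overlap at either time, with changes of 0.70 ± 0.16 (adjusted p = 0.00183) and -0.81 ± 0.16 (adjusted p = 0.000236). A peak 6814 bp upstream of Sidt2, a lysosomal membrane protein gene, changed by -1.77 ± 0.27 (adjusted p = 3.19e-06) at 8 h. At Pecam1 the hepatocyte peak did not pass at 3 or 8 h and changed by -1.14 ± 0.22 (adjusted p = 0.000157) at 16 h and -0.91 ± 0.22 (adjusted p = 0.00204) at 24 h.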

How the data were processed

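ATAC-seq was done on about 25000 bead-bound nuclei per reaction, sequenced in paired reads, with 2 technical runs per macrophage mouse per the labels' protocols. The macrophage table has 1 column per mouse, and how the runs were joined is not given in the sources used here. BWA 0.7.5a-r405, SAMtools, HOMER, DESeq2 and mm10 are named in the submitters' processing notes, with no role or settings.

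The authors deposited a signal per 200 bp peak and mouse, named normalized counts. Every value of a column is a whole multiple of 1 step (100% within 0.01 of a read), so it is reads divided by 1 factor per column. How that factor was set is not given in the sources used here. The authors also deposited log2 fold changes and adjusted p-values per time, of which only calls at 3 and 8 h are quoted. The authors' deposited peak score was not used, and the deposited distance to the nearest TSS (another value, in bp) named the gene of a peak. The number of unmapped value columns was 0.

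The labels give each hepatocyte library a mouse of its own, and each macrophage mouse 2 libraries, its technical runs. Replicates are mice, numbered 1 to 4 in accession order, so equal numbers do not pair mice. Replicates 1 and 2 and replicates 3 and 4 are 2 sets of library numbers. Fasted and fed mice were compared in R 4.3.3 with limma 3.58.1, on log2(deposited value + 2) with 8 group means per table, a trend in the prior variance, a mean of at least 10, and Benjamini-Hochberg adjustment over all tested peaks at 0.05, two-sided. Log2 fold changes carry ± SE and understate changes near 0 because of the offset. The SE of a peak rests on 1 estimate of spread over all 32 mice of its table. Steps were tested on simulated data. edgeR 4.0.16 with TMM and DESeq2 1.42.0 were run on the recovered whole reads, and 100% of values came out whole.

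The members, lists, motifs and tests were chosen with earlier results of these data known. Named peaks are the 12 lowest by mean L at 16 and 24 h (1 per gene). With them are up to 6 closed and 6 opened at 3 h and at 8 h by size of change (1 per gene). Up to 2 per gene list and up to 4 per time and direction with a called hepatocyte peak are also named. The rest are genes with 4 or more members and the 3 peaks nearest the threshold on either side. Predicted genes and hosts of small RNAs could be passed over. Names outside this rule are marked. Some peaks are not reported here. Alternatives were other offsets, filters, scalings and variance models, a replicate block, single mice left out, and a fit on the 3 h and 8 h mice alone, chosen after seeing the data. Sequences come from RefSeq promoter windows. No genome was used, so sequences of members away from promoters are not shown.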

Additional observations from a re-analysis of the deposited data

Results flagged for a closer look

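Within each group of 4 mice, the gap of the highest or lowest mouse to its nearest neighbour was divided by the group's range for 23 of the named members. Of 184 groups 6 had a ratio above 0.83, Dixon's 95% critical value for 4 samples, and chance alone gives about 1 in 20. The ratio was 0.8873 for BC147527 in fasted mice at 24 h, where replicate 3 had 20.8 normalized reads and the others 7.78 to 9.24. It was 0.8394 for Thsd4 in fed mice at 16 h, where replicate 4 had 51.3 and the others 39.6 to 41.5. It was 0.9327 for Gm8633 in fed mice at 3 h, where replicate 1 had 34.5 and the others 37.4 to 37.6. It was 0.9214 for Tyk2 in fasted mice at 16 h, where replicate 4, the mouse of fewest reads in macrophage peaks, had 16.3 and the others 22.4 to 22.9. It was 0.9291 for Igf1 in fed mice at 16 h, where replicate 1 had 90.5 and the others 68.1 to 69.7. It was 0.9809 for Morn1 in fasted mice at 16 h, where replicate 1, the lowest mouse over the members as a whole, had 12.4 and the others 25.1 to 25.3. Of the 8 group means over all members 0 had such a mouse.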

How the results depend on the processing

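The number of members depends on the scaling and the libraries. It was 1040 as defined, 597 with an offset of 8, 429 after median centring, 272 after quantile normalization, 2457 from replicates 1 and 2 alone, 384 from replicates 3 and 4 alone, 32 at a threshold of -1, and 783 to 1282 without single mice. An offset of 1 gave 1147 and a mean of log2 values 1060. Of the 1040 members, the number closed at 3 h (8) was 5 of 712 tested at a mean of at least 30, 25 after quantile normalization, 16 in edgeR and 15 in the fit on the 3 h and 8 h mice alone, and 2 to 7 without single mice. The number closed at 8 h (298) was 177 of 712 tested at a mean of at least 30 (24.9%), 171 after centring, 163 after quantile normalization, 191 in DESeq2 and 492 in the fit on the 3 h and 8 h mice alone, and 92 to 394 without single mice. Over all peaks the split at 8 h was 635 closed and 900 opened after quantile normalization, and 659 closed and 774 opened in DESeq2. Between 8 h and 3 h fed mice quantile normalization, edgeR and the fit on those mice alone gave 1 member in place of 0, with 0 without any single mouse. The difference of the fasting effect between 8 h and 3 h was called for 0 members in every alternative run. Overlap with hepatocyte peaks (30 of 1040, or 2.88%) was 17 for those with a mean of at least 30. It was 6 of the 429 members left after centring (1.40%). At a mean of at least 30 the hepatocyte peaks closed at members were 6, 9, 7 and 9 at 3, 8, 16 and 24 h, of 18 tested. Without single mice they were 7 to 11, 13 to 17, 15 to 18 and 17 to 20. With a replicate block for the sets of library numbers 349 members were closed at 8 h, and 11, 15, 16 and 19 hepatocyte peaks at 3, 8, 16 and 24 h; these numbers follow accession order and do not pair mice. The median SE of a log2 fold change was 0.18 over members and 0.14 over all peaks. The cause of these shifts was not tested.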
